A study of Homo sapiens with 12 samples.

Results

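The respiratory chain of the mitochondrial inner membrane, with ATP synthase counted as its complex V, was described here at the level of its subunit mRNAs. Members were chosen by name: the 13 protein-coding genes of mitochondrial DNA, and the nuclear genes of the NDUFA, NDUFB, NDUFC, NDUFS and NDUFV series, SDHA to SDHD, CYC1, the UQCR series, the COX4I to COX8A subunits and the ATP5F1, ATP5M and ATP5P series. This gave 98 of the 20286 genes in the table, of which 13 are encoded by mitochondrial DNA and 85 by the nucleus. Complex I had 43 members, complex II 4, complex III 11, complex IV 20 and complex V 20. Assembly factors were left out by the rule, COX7A2L among them, as were the read-through genes ATP5MF-PTCD1 and NDUFC2-KCTD14. NDUFA4 and NDUFA4L2 were counted with complex IV, where NDUFA4 is now placed.

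The cells were HK-2, a wild-type immortalised line made from human proximal tubule epithelium and grown in DMEM with serum. They were kept for 48 h with S100A8, S100A9 or S100A8/S100A9 as recombinant protein, each at a labelled 5 mg/mL; no other source was at hand to check that unit. Control cells (Ctrl) received the matching amount of PBS. Neutrophils and monocytes release S100A8 and S100A9, which bind calcium and together form calprotectin. Each of the 4 groups had 3 libraries of poly(A)-selected RNA, with totals of 15882193 to 20748334 counts. The labels do not say that replicates were separate cultures, so the p-values cover the spread between these libraries alone, which may be technical. All 12 libraries came from 1 line. Of 6 listed epithelial markers, KRT8, KRT18 and EPCAM averaged 287, 168 and 77.9 FPKM. CDH1, also on that list, was measured less precisely. The standard error of its log2 difference after S100A9 was 0.21, against 0.04 for KRT8 and 0.24 for VIL1, which averaged 0.55 FPKM. Among proximal tubule markers, PAX8, GGT1 and CDH6 averaged 122, 29.2 and 8.93 FPKM. The transporters, receptors and brush border genes LRP2, CUBN, AQP1, SLC34A1 and ANPEP averaged 0.010, 0.048, 0.082, 0.056 and 0.060 FPKM and VIL1 0.55 FPKM, so these defining markers were near 0. A fibroblast marker, LUM, averaged 33.0 FPKM and COL1A1 2.28 FPKM.

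Complexes I to IV pass electrons from NADH and succinate to oxygen and, except complex II, pump protons out of the matrix. ATP synthase lets the protons back and makes ATP. Mitochondrial DNA encodes membrane subunits of complexes I, III, IV and V and none of complex II. Nuclear genes encode the rest, so that both genomes must supply each of those 4 complexes. Proximal tubule cells depend on oxidative phosphorylation for solute transport, and are known to lose it in kidney injury.

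Mitochondrial mRNAs come from long transcripts that are cut into pieces, and 2 of these mRNAs carry a pair of overlapping reading frames each. The sequences of the overlaps are shown because their bases belong to both genes of a pair. MT-ATP8 is shown whole (chrM:8366-8572, + strand, GRCh38), and of MT-ND4L the last 60 bases (chrM:10707-10766, + strand, GRCh38). Capitals mark the bases that also belong to the next gene, which are 46 bases shared with MT-ATP6 and 7 bases shared with MT-ND4.

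MT-ATP8: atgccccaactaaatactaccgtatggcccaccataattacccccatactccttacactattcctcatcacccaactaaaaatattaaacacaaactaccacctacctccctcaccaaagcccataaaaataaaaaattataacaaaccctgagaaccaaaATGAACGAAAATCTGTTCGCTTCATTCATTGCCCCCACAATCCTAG
MT-ND4L: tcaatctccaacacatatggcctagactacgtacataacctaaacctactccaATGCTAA

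Many nuclear subunit genes are known targets of the factors NRF1, GABPA (an ETS factor) and YY1. Promoters of RefSeq (GRCh38.p14, 250 bases before to 50 after the start) were found for 66 of the 85 nuclear members. They were searched on both strands for GCGCA followed by any base and GCGC (NRF1), CCGGAAG (ETS) and AANATGGCG (YY1), each counted on its own, so that matches may overlap. Some genes have more than 1 entry, so these 66 genes have 78 promoters. At least 1 of the 3 motifs stood in 44 of the 78 (56.4%), against 17.1% of all 35116 promoters. NRF1 letters stood in 16 (20.5%, against 5.78% of all promoters), ETS letters in 22 (28.2%, against 10.3%) and YY1 letters in 19 (24.4%, against 3.19%). These are matches of letters, not binding sites. Promoters of 3 genes named below are shown with the matches in capitals: NDUFA11 (chr19:5903741-5904040, - strand), with 1 NRF1 match, COX5B (chr2:97645812-97646111, + strand), with 2 ETS matches, and SDHD (chr11:112086623-112086922, + strand), with an NRF1 match followed by an ETS match on the opposite strand.

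NDUFA11: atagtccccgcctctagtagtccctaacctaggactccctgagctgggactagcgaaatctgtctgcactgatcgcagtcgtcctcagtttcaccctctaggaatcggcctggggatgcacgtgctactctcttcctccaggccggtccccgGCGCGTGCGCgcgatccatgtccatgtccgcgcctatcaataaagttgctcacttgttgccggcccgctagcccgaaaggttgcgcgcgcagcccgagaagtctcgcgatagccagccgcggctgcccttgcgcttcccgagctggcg
COX5B: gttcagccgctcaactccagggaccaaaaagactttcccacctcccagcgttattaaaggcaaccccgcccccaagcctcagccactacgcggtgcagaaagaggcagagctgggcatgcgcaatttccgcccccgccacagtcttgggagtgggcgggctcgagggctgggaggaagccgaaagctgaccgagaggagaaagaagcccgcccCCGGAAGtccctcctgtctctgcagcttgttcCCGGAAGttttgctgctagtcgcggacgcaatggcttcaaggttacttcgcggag
SDHD: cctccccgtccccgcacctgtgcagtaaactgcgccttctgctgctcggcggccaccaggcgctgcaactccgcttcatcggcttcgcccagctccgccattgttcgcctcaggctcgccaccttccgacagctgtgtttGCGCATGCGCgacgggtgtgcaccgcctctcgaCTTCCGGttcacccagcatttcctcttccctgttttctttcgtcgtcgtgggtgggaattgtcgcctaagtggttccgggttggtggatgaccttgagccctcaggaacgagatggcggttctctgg

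Of the 98 members, 94 had enough counts to be tested. The other 4 were COX4I2, COX7A1 and COX7B2, tissue-restricted forms of complex IV subunits, and ATP5MGL, a relative of the ATP synthase subunit g gene ATP5MG. All 4 had 0 counts in all 12 libraries, which allows up to 0.145 CPM (counts scaled by library size) in the largest library and 0.189 CPM in the smallest, for counting error only. Per length, in FPKM, mitochondrially encoded genes lay far above nuclear ones. Their median was 4703 FPKM (means over 12 libraries), against 45.5 FPKM for the 81 nuclear members tested, and the lowest of them, MT-ND6 at 656 FPKM, was above the highest nuclear member, ATP5F1B at 279 FPKM. MT-CO1, the catalytic subunit of complex IV, was highest at 11905 FPKM. MT-CO3, MT-CO2, MT-ATP6, MT-ND4, MT-ND2 and MT-ND1 followed at 8216, 7877, 6017, 5945, 5080 and 4703 FPKM, and then MT-CYB, MT-ND3, MT-ND4L, MT-ND5 and MT-ATP8 at 3074, 2198, 2026, 1453 and 1196 FPKM. MT-ND6 is the only one of the 13 on the other strand and its mRNA is known to carry little or no poly(A) tail. What poly(A) selection contributed to its level was not tested. Nuclear copies of mitochondrial sequence were not listed in the table, so reads shared with them could not be told apart.

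Within a complex the nuclear subunits, which enter the enzyme in fixed proportions, differed widely in mRNA level. Complex I ran from NDUFV3, an accessory subunit of the NADH-binding module, at 3.86 FPKM to NDUFB9 at 147 FPKM, which is 38.1-fold, with a median of 40.4 FPKM. Complex II ran from SDHA, the flavoprotein, at 28.3 FPKM to SDHD, a membrane anchor, at 83.1 FPKM. Complex III reached 98.1 FPKM at UQCRB, which helps to bind ubiquinone. Complex IV reached 268 FPKM at COX6A1, and complex V ran from ATP5MC1 at 18.5 FPKM to ATP5F1B, the catalytic beta subunit, at 279 FPKM. Length enters these values: the deposited counts and FPKM imply 5553 bp for NDUFV3, against a median of 765 bp for nuclear members tested.

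Where a subunit has a pair of isoform genes, the common form prevailed. COX6A1 stood at 268 FPKM and the heart and muscle form COX6A2 at 1.98 FPKM, from 158 counts in all libraries together. COX6B1 was at 69.9 FPKM and the testis form COX6B2 at 0.326 FPKM, from 106.8 counts. COX4I1, COX7A2 and COX7B were at 157, 42.8 and 19.1 FPKM while COX4I2, COX7A1 and COX7B2 were not detected. NDUFA4 was at 27.1 FPKM and its hypoxia-induced relative NDUFA4L2 at 1.23 FPKM, from 310 counts. UQCRH, the hinge protein of complex III, was at 96.0 FPKM and its intronless copy UQCRHL at 0.415 FPKM. Their reference transcripts are 98.1% identical over 515 aligned bases, so the few counts of UQCRHL (190.7 in all) may belong to UQCRH. ATP5MC1, ATP5MC2 and ATP5MC3, which encode the same mature subunit c of the rotor ring, were at 18.5, 74.2 and 48.6 FPKM.

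**Figure D1:**
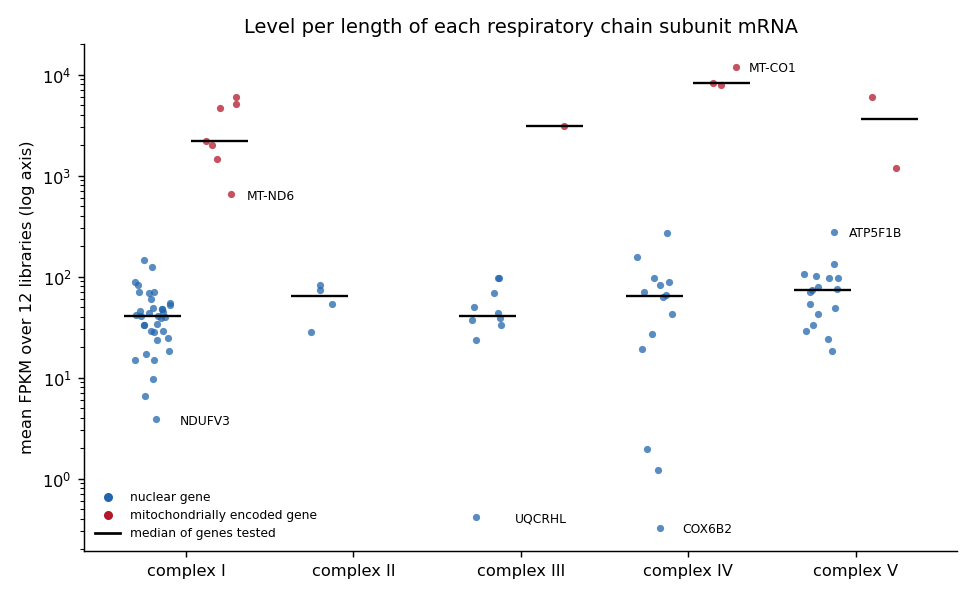
Mean FPKM over 12 libraries (log axis) of each subunit gene, by complex, with nuclear genes in blue and mitochondrially encoded genes in red; each point is a gene and bars are medians of the genes tested, and the 4 genes with 0 counts are not drawn. The lowest mitochondrial gene (MT-ND6, 656 FPKM) lies above the highest nuclear gene (ATP5F1B, 279 FPKM).

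The 13 mitochondrial genes took 5.69, 5.80 and 6.24% of all counts in the control libraries. They took 5.97, 5.69 and 5.76% after S100A8, 6.12, 6.45 and 5.96% after S100A9, and 6.41, 6.23 and 6.13% after S100A8/S100A9. The groups overlap: control replicate 3 lies among the libraries treated with S100A9 or S100A8/S100A9, and controls 1 and 2 lie below all 6 of those. The nuclear members took 0.425 to 0.460% of counts over the 12 libraries. Their share was 0.431 ± 0.006% in controls, 0.443 ± 0.010% after S100A8, 0.450 ± 0.009% after S100A9 and 0.436 ± 0.011% after S100A8/S100A9 (SD, n = 3 each). The 3 S100A9 libraries, at 0.444 to 0.460%, lay above the 3 controls, at 0.425 to 0.436%. In bulk RNA, fewer cells and less RNA per cell cannot be told apart, and shares show no absolute amount.

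**Figure D2:**
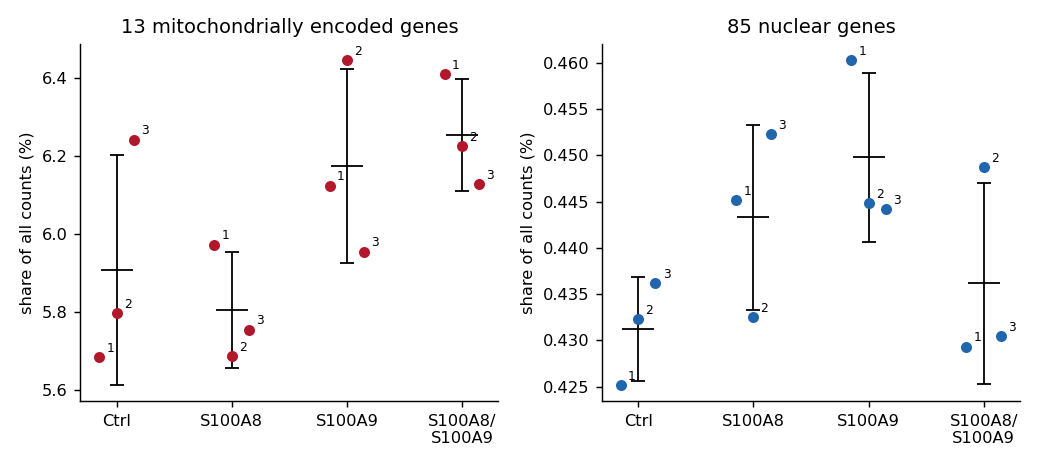
Share of all counts (%) taken by the 13 mitochondrially encoded genes (left) and the 85 nuclear genes (right) in each library, numbered by replicate, with the mean and SD of 3 libraries per group. Mitochondrial shares run from 5.69 to 6.45% and overlap between groups, and nuclear shares run from 0.425 to 0.460%.

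No respiratory chain gene passed the test in any comparison. With edgeR's quasi-likelihood test adjusted over all 13512 genes tested, 0 of the 94 members were called after S100A9, where 0.148% of all genes were. After S100A8, 0 members were called, against 0.00740% of all genes, and after S100A8/S100A9 0 members, against 0% of all genes. The smallest adjusted p of a member was 0.205 (NDUFA11) after S100A9, 1.00 (ATP5PD) after S100A8 and 0.630 (MT-ND1) after S100A8/S100A9. In the test for any difference among the 4 groups 0 members were called, against 0.222% of all genes. There 14 members had an unadjusted p under 0.05, against 5.91% of all genes, and the smallest adjusted p was 0.512 (MT-ND4). The 14 became 9 without control replicate 1 or 2 or S100A9 replicate 1. The 3 comparisons with control share the same 3 control libraries.

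The precision was enough to bound most members. The median standard error of a member's log2 difference was 0.07 in each arm. The whole 95% interval lay within 0.5 of 0 on the log2 scale for 82 of 94 members after S100A9, 87 after S100A8 and 86 after S100A8/S100A9. The members outside these bounds were low isoforms such as UQCRHL, COX6A2 and COX6B2 and some of the shortest genes, MT-ATP8, MT-ND3 and NDUFB1 among them.

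After S100A9, members leaned to higher values, each by a small amount. The log2 difference from control was above 0 for 83 of 94 members, with a median of 0.09, whereas it was above 0 for 49.9% of all genes tested, with a median of -0.00. An unadjusted p under 0.05 was reached by 20 members with higher values and 0 with lower values, against 3.23% and 2.63% of all genes. All 3 treated libraries lay above all 3 controls for 21 members and below for 0, against 6.25% and 5.77% of all genes. The median was 0.10 for the 13 mitochondrial genes (13 of 13 above 0) and 0.08 for the 81 nuclear genes (70 of 81 above 0). Leaving out 1 library moved the 20 genes at an unadjusted p under 0.05 to 10 and 11 without control replicate 1 or 2, to 31 without control replicate 3 and to 9 without S100A9 replicate 1. Median differences after S100A9 were between 0.06 and 0.15 in these fits for both genomes.

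Cell type markers were read beside this lean, and 0 of them were called in any comparison with control. After S100A9, 1 of 6 epithelial markers was above 0, with a median of -0.06; CLDN1, at 0.10 (SE 0.04), lay above all controls, and KRT8, at -0.05 (SE 0.04), and KRT19, at -0.09 (SE 0.04), lay below them. The summed level of the 6 was 1024 to 1049 FPKM in controls and 1025 to 1031 FPKM after S100A9, 1030 to 1053 FPKM after S100A8 and 1037 to 1067 FPKM after S100A8/S100A9. The tubule cadherin CDH6 had -0.27 (SE 0.08, edgeR adjusted p = 0.405) after S100A9, below all controls. The 3 tested of 4 fibroblast markers were below 0 after S100A9, COL1A1 at -0.22 (SE 0.13), LUM at -0.14 (SE 0.09) and PDGFRB at -0.57 (SE 0.31), and the list summed to 36.1 to 38.3 FPKM in controls and 30.4 to 36.1 FPKM after S100A9. COL1A1 was at -0.32 after S100A8 and -0.35 after S100A8/S100A9 (SE 0.13 each), below all controls in both. The 4 leukocyte and 4 endothelial markers summed to at most 0.62 and 0.44 FPKM in any library. The part of these markers in the result was not tested.

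S100A8 gave a smaller lean, with 65 of 94 members above 0 and a median of 0.04. An unadjusted p under 0.05 was reached by 2 members with higher and 0 with lower values, against 1.74% and 1.79% of all genes. Leaving out control replicate 1 or 3 gave 1 and 9 such members, and leaving out S100A8 replicate 1 or 2 gave 4 and 11. For 5 members all treated libraries lay above all controls and for 0 below, against 4.41% and 4.13% of all genes. These shares are near the background. The mitochondrial median was -0.02 (6 of 13 above 0) and the nuclear one 0.05 (59 of 81 above 0). Single libraries decide the size of the nuclear value, which was 0.07 without S100A8 replicate 2 and 0.03 without S100A8 replicate 3 or control replicate 2.

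After S100A8/S100A9, 69 of 94 members were above 0, with a median of 0.05. An unadjusted p under 0.05 was reached by 7 members with higher values, all of them mitochondrial, and by 0 with lower values, against 2.65% and 2.95% of all genes. For 7 members all treated libraries lay above all controls and for 1 below, against 5.30% and 5.40% of all genes. The mitochondrial median was 0.11 (13 of 13 above 0) and the nuclear one 0.03 (56 of 81 above 0). The 7 genes became 1, 2 and 17 without control replicate 1, 2 and 3, and 4 and 11 without S100A8/S100A9 replicates 1 and 3. The nuclear median was 0.01 without S100A8/S100A9 replicate 2 and 0.05 without replicate 1 or 3 or without control replicate 3.

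**Figure D3:**
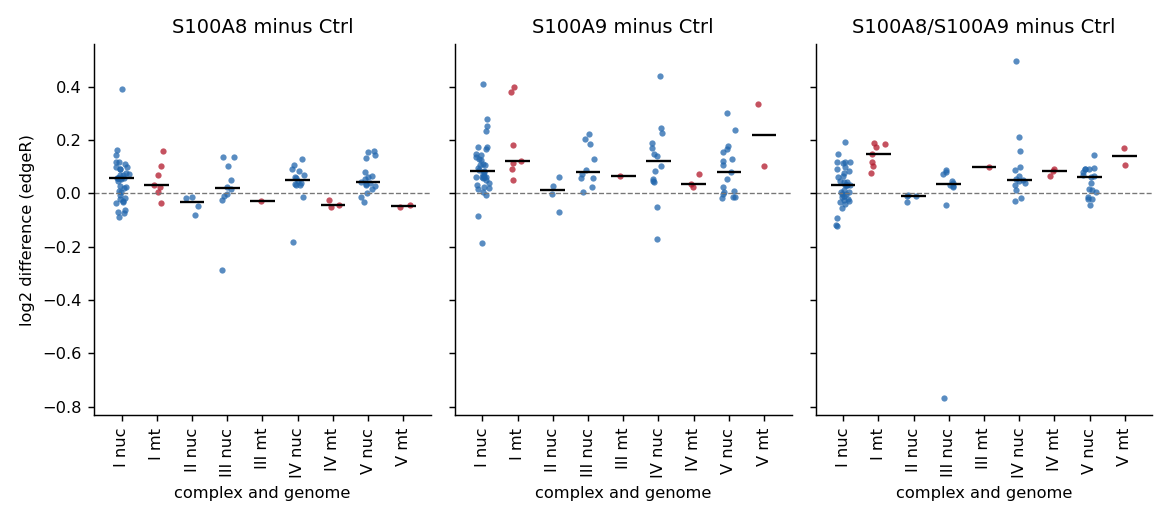
Log2 difference from control (edgeR, 3 libraries against 3) of each tested subunit gene, by complex and genome (nuc, nuclear; mt, mitochondrial), in the 3 treated arms; bars are medians. Most points after S100A9 lie above 0 (83 of 94), and no point passed the adjusted test.

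Control replicate 3 stood above the other controls in mitochondrial mRNA, and this touches every comparison with control. Its median log2 ratio to the control mean was 0.09 over the 13 genes, against -0.06 and -0.04 for controls 1 and 2. Without it the mitochondrial median was 0.04 after S100A8 and 0.16 after S100A8/S100A9. After S100A8 it was 0.00 and 0.02 without S100A8 replicates 2 and 3. With controls 1 or 2 left out these medians were -0.03 and -0.04 after S100A8, and 0.08 and 0.10 after S100A8/S100A9.

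Among the complex I genes of mitochondrial DNA, which build its proton-pumping membrane arm, MT-ND1 came closest to the threshold in the comparisons with control. It was at 4195, 4144 and 4468 CPM in controls, 4598, 4176 and 4319 CPM after S100A8, 4660, 4866 and 4355 CPM after S100A9 and 4901, 4786 and 4491 CPM after S100A8/S100A9. The 3 S100A8/S100A9 libraries lay above the 3 controls, the lowest of them by little, and S100A8 and S100A9 libraries overlapped with control replicate 3. Its log2 difference after S100A8/S100A9 was 0.15 (SE 0.04, 95% interval 0.05 to 0.24, edgeR adjusted p = 0.630). MT-ND2 and MT-ND4 had log2 differences of 0.12 and 0.10 after S100A8/S100A9, 0.12 and 0.09 after S100A9, and 0.00 and -0.04 after S100A8. For MT-ND5 the 3 values were 0.08, 0.05 and 0.02 in that order, and for MT-ND6 0.17, 0.18 and 0.07.

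The short genes MT-ND3 and MT-ND4L varied most among the complex I genes of mitochondrial DNA. MT-ND3 was at 591, 615 and 790 CPM in controls, 862, 586 and 780 CPM after S100A8, 925, 898 and 808 CPM after S100A9 and 680, 889 and 705 CPM after S100A8/S100A9. MT-ND4L was at 483, 497 and 619 CPM in controls, 682, 450 and 587 CPM after S100A8, 738, 718 and 627 CPM after S100A9 and 540, 699 and 581 CPM after S100A8/S100A9. Both were above all controls in every S100A9 library, and both were high in S100A8 replicate 1 and S100A8/S100A9 replicate 2. The log2 difference after S100A9 was 0.40 (SE 0.17) for MT-ND3 and 0.38 (SE 0.17) for MT-ND4L, with 95% intervals that include 0.

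MT-CYB, the cytochrome b of complex III and its only mitochondrial gene, had log2 differences of 0.07 after S100A9, -0.03 after S100A8 and 0.10 after S100A8/S100A9 (SE 0.04 each). The complex IV genes MT-CO1, MT-CO2 and MT-CO3 form its catalytic core. MT-CO1 was at 17519, 18010 and 19172 CPM in controls, 17686, 17558 and 17542 CPM after S100A8, 18174, 19227 and 18226 CPM after S100A9 and 19537, 18687 and 18975 CPM after S100A8/S100A9. All 3 S100A8 libraries were below all S100A9 and all S100A8/S100A9 libraries, while the controls spread across most of that range. From control the log2 differences of MT-CO1 were 0.02, -0.05 and 0.06 after S100A9, S100A8 and S100A8/S100A9 (SE 0.03 each). MT-CO2 and MT-CO3 showed 0.09 and 0.08 after S100A8/S100A9, with all 3 treated libraries above the controls for MT-CO2. There the ranges nearly touched: the log2 ratio to the control mean was 0.064 in S100A8/S100A9 replicate 2 and 0.060 in control replicate 3.

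Of the 2 mitochondrial genes of ATP synthase, MT-ATP6 forms the proton channel and had log2 differences of 0.10, -0.04 and 0.11 after S100A9, S100A8 and S100A8/S100A9 (SE 0.05 each). MT-ATP8, with 207 bp the shortest member, was at 210, 203 and 269 CPM in controls, 292, 170 and 197 CPM after S100A8, 333, 295 and 234 CPM after S100A9 and 227, 275 and 268 CPM after S100A8/S100A9. Every treated group overlapped with the controls. Its log2 difference after S100A9 was 0.34 (SE 0.22). The 46 shared bases shown above are part of both genes, so their counts are not fully separate.

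**Figure D4:**
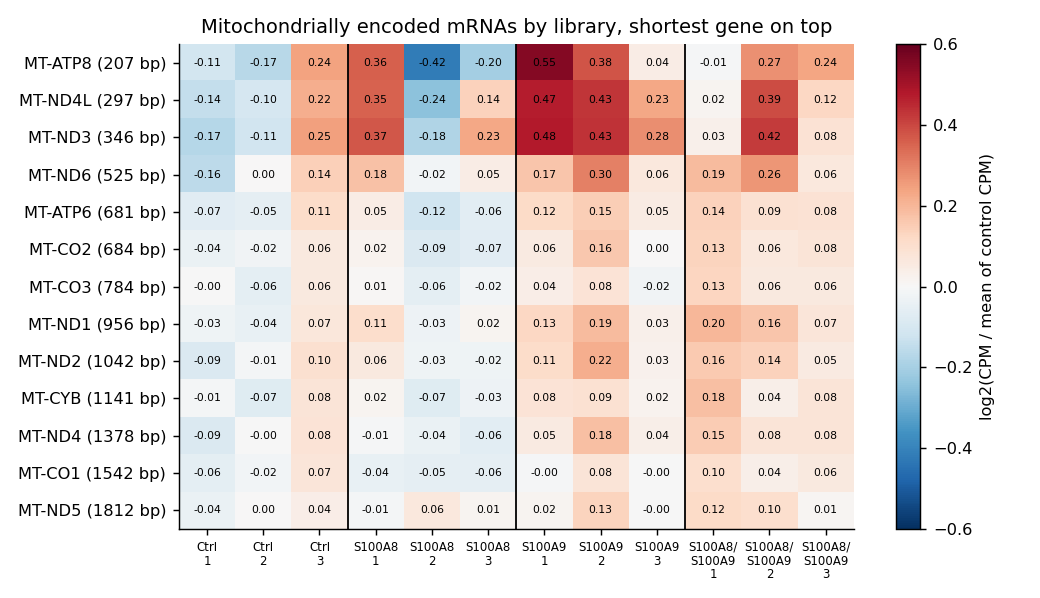
Log2 ratio of CPM to the mean of the 3 controls for the 13 mitochondrially encoded genes (rows, shortest on top, with length) in each of the 12 libraries (columns, by group and replicate). The short genes vary most between libraries of the same group, and control replicate 3 is above the other controls in all rows.

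The nuclear genes of complex I had a median log2 difference of 0.08 after S100A9, 0.06 after S100A8 and 0.03 after S100A8/S100A9, with 33, 26 and 23 of 36 above 0. NDUFA11 (chr19:5891276-5904006 on GRCh38), a membrane-arm accessory subunit, had the smallest p of any member. It was at 37.1, 38.9 and 40.5 CPM in controls, 45.6, 39.7 and 39.5 CPM after S100A8, 48.1, 44.8 and 45.9 CPM after S100A9 and 41.6, 45.6 and 39.4 CPM after S100A8/S100A9. The S100A9 libraries lay above the controls with a gap, and the other arms overlapped with them. The log2 difference after S100A9 was 0.25 (SE 0.07, 95% interval 0.11 to 0.39, edgeR adjusted p = 0.205). NDUFB1, another small membrane-arm subunit, had the smallest p of complex I after S100A8. It was at 8.34, 8.02 and 10.7 CPM in controls, 13.6, 9.77 and 12.2 CPM after S100A8, 14.0, 12.3 and 9.88 CPM after S100A9 and 9.02, 12.1 and 10.0 CPM after S100A8/S100A9. Each treated group overlapped with control replicate 3, and the log2 difference after S100A8 was 0.39 (SE 0.15). NDUFB4, of the same arm, had the smallest p of the nuclear genes of complex I after S100A8/S100A9, with log2 differences of 0.15 there, 0.24 after S100A9 and 0.14 after S100A8 (SE 0.07 each).

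The members at both ends of the level range of complex I had small differences. NDUFB9 had log2 differences of 0.06, 0.03 and -0.06 after S100A9, S100A8 and S100A8/S100A9, and NDUFV3 0.11, 0.01 and 0.04. Some subunits of the arm that oxidises NADH, chosen after their values were seen, may be set beside them. NDUFV2, an iron-sulphur subunit there, had a log2 difference of 0.17 (SE 0.06) after S100A9, NDUFV1, which binds NADH, 0.04 (SE 0.06), and NDUFS1, the largest iron-sulphur subunit, 0.05 (SE 0.04).

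Complex II, whose 4 genes are all nuclear, lay near 0. SDHA, SDHB, SDHC and SDHD had log2 differences of 0.03, -0.00, 0.06 and -0.07 after S100A9, with a median of 0.01. After S100A8 they were -0.05, -0.08, -0.01 and -0.02, and after S100A8/S100A9 -0.03, -0.01, -0.01 and -0.01, so that 0 of 4 were above 0 in those arms. SDHB, the iron-sulphur subunit, was at 53.5, 57.1 and 55.4 CPM in controls, 49.3, 51.6 and 56.0 CPM after S100A8, 57.7, 54.3 and 53.9 CPM after S100A9 and 55.5, 53.7 and 55.5 CPM after S100A8/S100A9, and all groups overlapped. SDHD varied most, from 95.1 to 129 CPM, with its highest library in the S100A8 group and its lowest in the S100A8/S100A9 group. Whether complex II differed from the other complexes was not tested.

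The 10 nuclear genes of complex III had a median log2 difference of 0.08 after S100A9, with 10 of 10 above 0, of 0.02 after S100A8 and of 0.04 after S100A8/S100A9. UQCRB was at 114, 115 and 121 CPM in controls, 118, 116 and 122 CPM after S100A8, 130, 130 and 122 CPM after S100A9 and 114, 122 and 122 CPM after S100A8/S100A9. The S100A9 libraries were above the controls, the third by little, for a log2 difference of 0.13 (SE 0.04, edgeR adjusted p = 0.617). UQCR10, a small subunit of the complex, was above all controls after S100A9 (0.19, SE 0.07) and after S100A8 (0.14, SE 0.07), where it had the smallest p of complex III. The copy UQCRHL had log2 differences of 0.22, -0.29 and -0.77 (SE 0.40 to 0.44) after S100A9, S100A8 and S100A8/S100A9 at 0.37 to 1.81 CPM. Those values rest on few counts, and UQCRH itself had 0.07, 0.10 and 0.05.

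The 14 tested nuclear genes of complex IV had the highest nuclear median after S100A9, 0.12, with 12 of 14 above 0, and 0.05 in each other arm. COX5B (chr2:97646040-97648383 on GRCh38), a peripheral zinc-binding subunit, was at 36.3, 39.5 and 44.3 CPM in controls, 44.0, 39.1 and 45.0 CPM after S100A8, 47.5, 46.7 and 46.5 CPM after S100A9 and 41.0, 46.2 and 40.8 CPM after S100A8/S100A9. The S100A9 libraries were closely grouped above the controls, which themselves spread widely, and the log2 difference was 0.23 (SE 0.07, edgeR adjusted p = 0.405). COX6C, a small membrane subunit, had 0.25, 0.13 and 0.16 after S100A9, S100A8 and S100A8/S100A9 (SE 0.08 each), the smallest p of the nuclear genes of complex IV in the last 2. The common isoforms had small positive values after S100A9: COX6A1 0.10, COX6B1 0.19, COX4I1 0.09, COX7A2 0.04, COX7B 0.14 and NDUFA4 0.15. COX6A2 and COX6B2 were low in each group, at 0.41 to 1.08 CPM and 0.35 to 0.75 CPM.

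The 17 tested nuclear genes of complex V had medians of 0.08, 0.04 and 0.06 after S100A9, S100A8 and S100A8/S100A9. ATP5MF, subunit f of the membrane part, had the smallest p of these after S100A9, with 47.1, 42.6 and 49.2 CPM in controls and 54.6, 50.2 and 51.2 CPM after S100A9, a log2 difference of 0.17 (SE 0.07, edgeR adjusted p = 0.793). ATP5PD, subunit d of the peripheral stalk, had the smallest p of any member after S100A8, with 39.8, 42.9 and 39.8 CPM in controls and 43.3, 43.6 and 49.7 CPM after S100A8, a log2 difference of 0.16 (SE 0.06). In both cases the treated libraries were above the controls and the nearest pair was close. ATP5F1D, the delta subunit of the central stalk, had 0.15 (SE 0.08) after S100A8/S100A9. ATP5F1B was even across the groups, with log2 differences of -0.01, 0.02 and -0.04 (SE 0.04 each), and the subunit c genes ATP5MC1, ATP5MC2 and ATP5MC3 had 0.13, 0.05 and 0.01 after S100A9 and 0.03, 0.15 and -0.01 after S100A8.

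After S100A9, log2 differences fell with gene length among genes that are not members. Nuclear members followed this up to 2000 bp and not beyond. Short genes in general were higher: among genes that are not members, the median log2 difference after S100A9 was 0.13 for the 126 genes under 600 bp, 0.05 for the 702 from 600 to under 1000 bp, 0.01 for the 3479 from 1000 to under 2000 bp and -0.01 for the 9111 from 2000 bp. Nuclear members are short, with 59.3% under 1000 bp against 6.54% of all genes tested. Their medians in the same classes were 0.13 (24 genes), 0.09 (24), 0.02 (24) and 0.09 (9). In the last class 8 of 9 nuclear members were above 0, against 46.0% of the other genes. Mitochondrial genes had medians of 0.36 (4), 0.09 (4) and 0.07 (5) in the first 3 classes. With offsets that level each library over gene length, fitted without the members and chosen after seeing the data, the nuclear median after S100A9 was 0.02 in place of 0.08, and 7 members in place of 20 had an unadjusted p under 0.05. The mitochondrial median was 0.06 in place of 0.10.

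In the other arms the relation with length was weaker. Other genes under 600 bp had a median of 0.06 after S100A8 and 0.03 after S100A8/S100A9. With the offsets the nuclear medians were 0.02 and 0.03, and the mitochondrial ones -0.04 and 0.10, so that the mitochondrial value after S100A8/S100A9 was about as large with them as without. By library, the median log2 ratio of other genes under 600 bp to the control mean was -0.05, -0.02 and 0.06 in controls, 0.10, -0.03 and 0.10 after S100A8, 0.17, 0.13 and 0.10 after S100A9 and -0.02, 0.12 and -0.01 after S100A8/S100A9. The 4 mitochondrial genes under 600 bp had medians of -0.14, -0.10 and 0.24, then 0.37, -0.20 and 0.10, then 0.48, 0.41 and 0.16, and then 0.04, 0.34 and 0.11 in the same libraries. Control replicate 3 and S100A8/S100A9 replicate 2 were the highest of their groups in both series, and S100A8 replicate 2 the lowest of its own. The 9 mitochondrial genes from 600 bp had medians of -0.04, -0.02 and 0.07, then 0.02, -0.05 and -0.03, then 0.06, 0.15 and 0.02, and then 0.14, 0.08 and 0.07. There the S100A8/S100A9 libraries were all at or above the highest control.

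**Figure D5:**
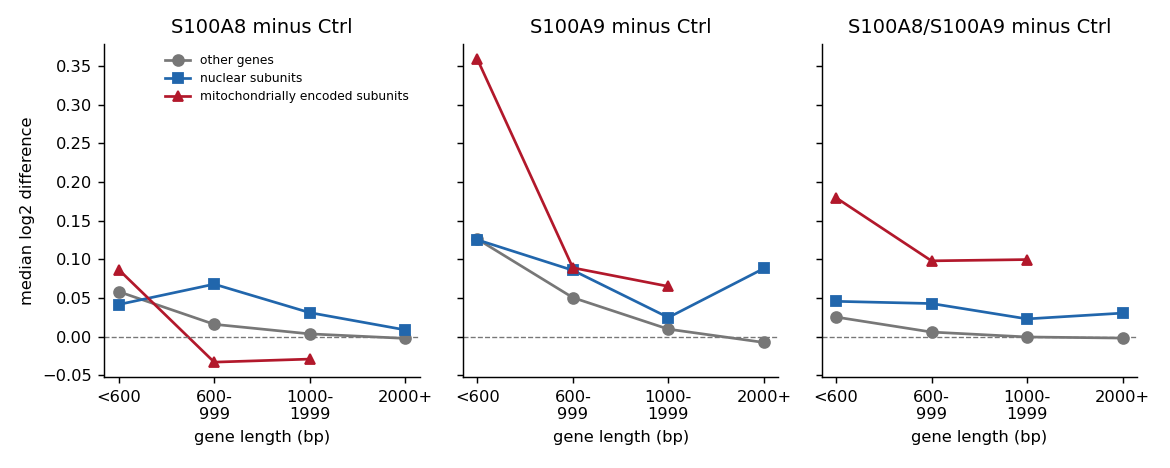
Median log2 difference from control (edgeR) by gene length class in bp, in each treated arm, for nuclear subunits, mitochondrially encoded subunits and all other genes tested; points are medians over genes. After S100A9 the shortest class is highest in all 3 series (0.13 for other genes, 0.13 for nuclear and 0.36 for mitochondrial subunits).

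Between treated arms, mitochondrial genes had lower values after S100A8 than after the other 2 treatments, and no member passed the test. Against S100A8, S100A9 gave 0 members called, against 0.185% of all genes, and 10 with an unadjusted p under 0.05, all higher, against 7.00% of all genes. All 3 S100A9 libraries lay above all 3 S100A8 libraries for 12 members, against 6.41% of all genes, among them MT-ND4, MT-CYB, MT-CO1 and MT-ATP6. They lay below for 2, against 6.09% of all genes, and these were ATP5MG and ATP5PO of ATP synthase (-0.05 and -0.08, SE 0.05 each). The mitochondrial median was 0.12 with 13 of 13 above 0, and the nuclear one 0.05. The smallest p belonged to MT-ATP6, at 4106, 3664 and 3812 CPM after S100A8 and 4309, 4404 and 4114 CPM after S100A9, a log2 difference of 0.15 (SE 0.05, edgeR adjusted p = 0.398). Those ranges nearly touch. The 10 genes became 18 without S100A8 replicate 1, 3 without S100A8 replicate 2 and 5 without S100A9 replicate 1 or 2.

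S100A8/S100A9 against S100A8 gave 0 members called, against 0% of all genes, and 9 with an unadjusted p under 0.05, against 4.43% of all genes. Of these 8 were mitochondrial genes with higher values and 1 was ATP5PD, with a lower value (-0.15, SE 0.06). All 3 S100A8/S100A9 libraries lay above all 3 S100A8 libraries for 6 members, against 4.45% of all genes, and these were MT-CO1, MT-CO2, MT-CO3, MT-ND4, MT-CYB and MT-ATP6. For 2 members they lay below, against 4.55% of all genes, and these were ATP5PD and the complex I gene NDUFB9 (-0.08, SE 0.05). In the 6 that lay above, log2 differences ran from 0.11 for MT-CO3 to 0.15 for MT-ATP6, and the smallest edgeR adjusted p was 0.980. The mitochondrial median was 0.11 with 13 of 13 above 0, against 0.00 for nuclear members. The 2 comparisons share the S100A8 libraries, so they are not separate evidence.

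S100A8/S100A9 against S100A9 gave 0 members called, against 0.252% of all genes. An unadjusted p under 0.05 was reached by 7 members, 1 higher and 6 lower, against 7.15% of all genes. All 3 libraries lay above those of S100A9 for 2 members and below for 10, against 5.94% and 6.53% of all genes. Mitochondrial genes had a median of 0.01 and nuclear genes of -0.06, with 17 of 81 above 0, and other genes under 600 bp had a median of -0.11. The higher member was NDUFA4L2, which was at 2.13, 1.91 and 1.62 CPM after S100A8/S100A9 and 1.23, 1.18 and 1.15 CPM after S100A9, a log2 difference of 0.67 (SE 0.28, edgeR adjusted p = 0.634). Control libraries were at 0.93, 1.38 and 1.70 CPM and S100A8 libraries at 0.97, 1.51 and 1.62 CPM, and both groups of the comparison overlapped with them. The 7 genes became 22 without S100A8/S100A9 replicate 2, 0 without its replicate 1, 4 without its replicate 3 and 2 without S100A9 replicate 1.

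Genes that build, translate or regulate the chain gave 0 calls in all 3 comparisons with control. Of all genes, 0.148%, 0.00740% and 0% were called after S100A9, S100A8 and S100A8/S100A9. An unadjusted p under 0.05 was reached with higher values by 3.23%, 1.74% and 2.65% of all genes in that order. With lower values it was reached by 2.63%, 1.79% and 2.95%. Of 77 mitochondrial ribosomal protein genes, which translate the 13 mitochondrial mRNAs, 59 were above 0 after S100A9 with a median of 0.04, and 4 had an unadjusted p under 0.05 with higher values and 0 with lower. After S100A8 and S100A8/S100A9 their medians were 0.00 and 0.01, with 0 higher and 2 and 3 lower. MRPL55 had the smallest p of the list, with a log2 difference of -0.27 (SE 0.09) after S100A8/S100A9. Of 44 assembly factors 25 were above 0 after S100A9 with a median of 0.02, and an unadjusted p under 0.05 was reached by 1 higher and 1 lower gene, then by 0 after S100A8 and by 2 lower genes after S100A8/S100A9. ATPAF1, which helps to assemble the head of ATP synthase, had the smallest p, at -0.21 (SE 0.07) after S100A9. Of 24 genes for transcription and stability of mitochondrial RNA the medians were -0.01, 0.02 and -0.03 after S100A9, S100A8 and S100A8/S100A9, all near 0. An unadjusted p under 0.05 was reached there by 0, 0 and 2 genes, and MTERF3 had the smallest p, at -0.19 (SE 0.09) after S100A8/S100A9.

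The 11 genes for replication of mitochondrial DNA had medians of 0.02, -0.01 and -0.01 in the same order, with 1 gene at an unadjusted p under 0.05, PRIMPOL, at -0.19 (SE 0.09) after S100A9. The 16 genes of pyruvate dehydrogenase and the tricarboxylic acid cycle outside complex II, which supply NADH, had medians of -0.00, 0.03 and 0.03. OGDH, a subunit of the oxoglutarate dehydrogenase, had their only unadjusted p under 0.05 and the value -0.12 (SE 0.04) after S100A8. The 10 nuclear regulators of respiratory genes had medians of 0.01, 0.01 and 0.05, with 1 higher gene after S100A9, 1 after S100A8 and 0 after S100A8/S100A9. GABPB1, a partner of the ETS factor, had the smallest p, at 0.23 (SE 0.09) after S100A8. Among nuclear members with a promoter entry, the median log2 difference after S100A9 was 0.09 for the 42 genes that hold at least 1 of the 3 motifs and 0.06 for the 23 tested that hold none, and the difference between them was not tested.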

How the data were processed

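Poly(A)-selected RNA of 12 HK-2 libraries was sequenced. The authors deposited 1 table with expected counts, which need not be whole (12.0% were not), and FPKM, the authors' scaling to gene length and library total, per the file headers. Which aligner and counter were used is not given in the sources used here. Mouse builds (GRCm38 and mm10) stand in the submitters' processing notes although the gene IDs are human, so coordinates come from GENCODE release 29 (GRCh38). Of 20286 gene IDs, 20228 were named by a table of gene names and 50 by GENCODE alone.

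Counts were rounded, filtered with filterByExpr (minimum count 10) and TMM-scaled. A quasi-likelihood model with robust dispersion (edgeR 4.0.16, R 4.3.3) had 1 coefficient per group over all 12 libraries (8 residual degrees of freedom, common biological coefficient of variation 4.65%). Two-sided p-values were adjusted by Benjamini-Hochberg over the 13512 genes tested, with a threshold of 0.05, and intervals are 95%. The procedure was tested on simulated data. CPM are TMM-normalised. Length classes use the length implied by the deposited count and FPKM, within 1 bp of GENCODE for all 13 mitochondrial genes. Alternatives were a replicate block, DESeq2 1.42.0 size factors and Wald test, no TMM, library sizes without mitochondrial genes, no filter, limma 3.58.1 on log2(FPKM + 1), only the 6 libraries compared, and leaving out each library. Offsets by gene length (lowess, span 0.2) were added after seeing the data.

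Members and lists were chosen with earlier results of these data known. Named genes were the 13 mitochondrial genes, members past the threshold, per complex the highest and lowest nuclear FPKM and the smallest p in each arm, isoform pairs, the 3 subunit c genes, and the smallest p of each other list. Other genes named were chosen after their values were seen. Of the markers, 1 is not reported here.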

Additional observations from a re-analysis of the deposited data

How the results depend on the processing

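In the 110 alternative fits, 0 members were called in each of the 7 tests, and the smallest adjusted p of any member in any fit was 0.0619. Leaving out 1 library at a time thus gave 0 to 0 calls in every comparison. In those fits that left out 1 library, the mitochondrial median ranged from 0.070 to 0.150 after S100A9. It ranged from -0.042 to 0.043 after S100A8 and from 0.084 to 0.165 after S100A8/S100A9. The highest value of each range came without control replicate 3. In the same fits the nuclear median ranged from 0.062 to 0.092, from 0.025 to 0.072 and from 0.011 to 0.055 in that order. Offsets by gene length, chosen after seeing the data, gave 0.021 in place of 0.082 for the nuclear median after S100A9. That value is below its range above, and the move was more than 1 SD of the libraries (SD 0.026). The mitochondrial median after S100A9 with these offsets was also below its range. Leaving out control replicate 3 moved the mitochondrial median by more than 1 SD of the libraries after S100A8 (SD 0.054) and S100A8/S100A9 (SD 0.028). Apart from leaving out libraries and from the offsets on the nuclear median after S100A9, the alternatives moved these medians by less than 1 SD. Of 1977 values of single named members, 91 moved by more than 1 SD and 0 were called. With the replicate number as a block 0 members were called. Over all genes, the block gave 42 calls in place of 20 for S100A9 against control. It gave 69 in place of 25 for S100A9 against S100A8 and 71 in place of 34 for S100A8/S100A9 against S100A9. S100A8/S100A9 against S100A8 stayed at 0. The labels do not say whether the numbers pair the samples. Correlations between libraries describe this, and no test of pairing was run. Of 18 correlations between same-numbered libraries, 2 were above 0.1 (range -0.0739 to 0.151). Still, 9 of 12 libraries correlated best with a library of their own number, which is 1 of 3 libraries in each other group. Depth limits COX6A2, COX6B2, NDUFA4L2 and UQCRHL, each under 3 CPM.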
